A study of Mus musculus with 21 samples.

Results

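The genes described here are 8 genes of granule neuron migration and maturation, Cntn2, Dcx, Astn1, Reln, Tiam1, Rbfox3, Tubb3 and Etv1. They were set as a fixed list by name, and what was counted at each of them was the peak summits that lay in the gene body or within 20 kb of it, among the 100000 highest-scoring summits of every library (kept summits). All 8 have a window, out of 21887 protein-coding genes, and together they held 3973 of the 2100000 kept summits of the 21 libraries, with 1 library contributing between 141 and 250. In RefSeq on mm10 the genes lie at chr1:132509425-132543251 (Cntn2), chrX:143855842-143933396 (Dcx), chr1:158362102-158691786 (Astn1), chr5:21884454-22344705 (Reln), chr16:89787111-90145600 (Tiam1), chr11:118489760-118911597 (Rbfox3), chr8:123411553-123422015 (Tubb3) and chr12:38780082-38870483 (Etv1). Accessible chromatin had been mapped in mouse cells by Omni-ATAC, in which a transposase cuts and tags open DNA. There were 7 groups of 3 libraries. VDR, a mouse medulloblastoma cell line, was treated with siNfia or siNfib, directed at the transcription factors Nfia and Nfib, with the control siNC, or was left untreated. The labels call these reagents siRNAs while the deposited names begin with sh, and VDR is a single line. The primary groups were granule neuron progenitors (GNP) of postnatal day 7, titled Ptch1GNP with no genotype stated, hyperplasia cells of postnatal day 28, and medulloblastoma (tumor) cells of unstated age. The 3 primary groups came from cerebella carrying Atoh1-EGFP, which marks the granule lineage, and EGFP-positive cells were sorted. The labels leave unsaid whether replicate libraries derive from different animals or cultures, so the p-values below measure the spread between these libraries, which may be technical.

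Granule neurons are born in the outer layer of the young cerebellum, where their progenitors divide under Sonic hedgehog. After leaving the cell cycle they extend parallel fibres and migrate inward along Bergmann glia to the internal granular layer, where they mature, and medulloblastoma of the Sonic hedgehog type arises from progenitors that do not complete this course. Reln encodes reelin, a secreted glycoprotein that guides neuronal positioning and is made by granule cells. Cntn2 encodes contactin-2 (TAG-1), a cell adhesion molecule of premigratory granule cells, and Astn1 encodes astrotactin-1, a membrane protein of granule cells that takes part in migration along glia. Dcx (doublecortin) and Tubb3 (class III beta-tubulin) act in the microtubules of young neurons. Tiam1 is an exchange factor that activates the GTPase Rac1. Rbfox3 encodes the neuronal splicing factor known as NeuN, and Etv1 is a transcription factor of the ETS family that is tied to granule cell maturation. The study itself addressed what NFI factors do in medulloblastoma chromatin.

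The promoters of 4 members are shown as examples of starts with a summit nearly throughout and starts without one in some VDR libraries. That of Tubb3 held a kept summit in all 21 libraries and that of Cntn2 in all but 2 untreated VDR libraries. Those of Reln and Dcx held one in all 9 primary libraries, and in untreated VDR in 1 of 3 libraries for Reln and in none for Dcx. Each runs from 250 bases before to 50 bases after an annotated start, is taken from RefSeq on GRCm38.p6 (the mm10 assembly), is written 5′ to 3′ on the gene's own strand, and has in capitals the letters TTGGCA (either strand), a short form of the NFI motif. The Cntn2 stretch is chr1:132542891-132543190 (minus strand), that of Dcx chrX:143933170-143933469 (minus strand), that of Reln chr5:22344656-22344955 (minus strand) and that of Tubb3 chr8:123411303-123411602 (plus strand).
Cntn2: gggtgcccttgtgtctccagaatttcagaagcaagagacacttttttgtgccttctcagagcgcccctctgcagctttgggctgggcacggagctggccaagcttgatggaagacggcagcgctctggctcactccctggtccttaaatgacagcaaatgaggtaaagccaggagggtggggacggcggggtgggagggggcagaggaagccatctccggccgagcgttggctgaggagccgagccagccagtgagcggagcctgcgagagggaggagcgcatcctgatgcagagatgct
Dcx: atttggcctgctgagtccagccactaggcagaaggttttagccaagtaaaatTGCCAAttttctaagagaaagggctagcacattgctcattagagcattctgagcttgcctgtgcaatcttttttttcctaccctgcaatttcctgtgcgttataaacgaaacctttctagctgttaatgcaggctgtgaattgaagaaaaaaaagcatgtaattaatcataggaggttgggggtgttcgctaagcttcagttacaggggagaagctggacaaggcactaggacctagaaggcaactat
Reln: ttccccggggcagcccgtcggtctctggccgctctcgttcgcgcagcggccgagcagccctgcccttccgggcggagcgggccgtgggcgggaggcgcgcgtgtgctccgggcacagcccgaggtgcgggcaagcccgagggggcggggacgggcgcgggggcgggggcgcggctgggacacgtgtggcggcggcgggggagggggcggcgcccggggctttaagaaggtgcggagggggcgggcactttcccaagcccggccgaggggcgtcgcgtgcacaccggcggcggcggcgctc
Tubb3: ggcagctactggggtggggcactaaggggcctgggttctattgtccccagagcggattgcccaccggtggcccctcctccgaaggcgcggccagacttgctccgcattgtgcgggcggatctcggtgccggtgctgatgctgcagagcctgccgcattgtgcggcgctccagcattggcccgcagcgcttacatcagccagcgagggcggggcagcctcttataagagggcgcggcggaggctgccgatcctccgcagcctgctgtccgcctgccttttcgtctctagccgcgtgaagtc
Only the Dcx stretch among these 4 holds these letters, written there as its reverse complement TGCCAA, 198 bases before the start. In all, the 8 members have 11 promoter stretches in the RefSeq table. TTGGCA was in 1 stretch each of Rbfox3, Etv1, Tiam1 and Dcx, while 14.1% of 32817 mouse promoter stretches hold it. The full palindrome, TTGGC and GCCAA with 5 bases between, was in none of the 11 and in 0.0366% of all stretches. The E-box CAGCTG was in 1 stretch each of Astn1 and Tiam1 (16.3% of all stretches), and the E-box CAGATG in 1 each of Etv1 and Tiam1 (17.2%). The GLI motif TGGGTGGTC was in none of the 11 (0.253% of all stretches). These are letters in a window and say nothing of whether a factor bound there. The GC content was 80.7% in the Reln stretch, 67.3% in that of Tubb3, 61.3% in that of Cntn2 and 43% in that of Dcx.

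The same number of summits was kept from every library, so the counts below compare how the strongest summits were spread over the genome and not how much chromatin was open. The deposited lists had between 159720 and 279584 summits. The authors' score at rank 100000, a stand-in for the strength of a library because read depth is unknown, was 3.76 to 3.97 in untreated VDR, 4.95 to 9.61 with siNC, 5.03 to 7.23 with siNfia, 8.25 to 17.4 with siNfib, 15.3 to 28.9 in GNP, 9.26 to 12.6 in hyperplasia and 10.02 to 21.3 in tumor. Untreated VDR therefore stood apart from all other groups, and its kept summits reach down to much weaker peaks. The siNC libraries also all lay below the tumor libraries, so siNC against tumor too compares lists of unequal strength. The part of this difference in the calls was not tested. Fewer cells with an open site and a weaker opening in each cell cannot be told apart in such bulk libraries.

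Across the primary cells the windows of the members carried many summits, and per 100 kb of window the tumor cells had 18.96 ± 2.71 at Cntn2, 17.8 ± 3.96 at Tubb3, 14.9 ± 2.46 at Rbfox3, 9.37 ± 1.26 at Tiam1, 8.26 ± 0.945 at Reln, 6.90 ± 1.33 at Etv1, 5.39 ± 0.491 at Dcx and 5.14 ± 0.271 at Astn1 (summit density, SD, n = 3). In this order the ranges of mean ± SD of neighbours overlapped, except those of Rbfox3 and Tiam1. The Astn1 value includes neighbours, since 20.98% of the summits counted there lay in the bodies of Brinp2 and Pappa2, against 8.81% for Tubb3 (Tcf25 and Mc1r), 8.18% for Rbfox3 (Engase), 0.483% for Cntn2 and 0 for Dcx, Reln, Tiam1 and Etv1. Summed over the 8 members, GNP libraries held 221 ± 2.89 kept summits, hyperplasia libraries 205 ± 13.7 and tumor libraries 205 ± 10.4.

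**Figure D1:**
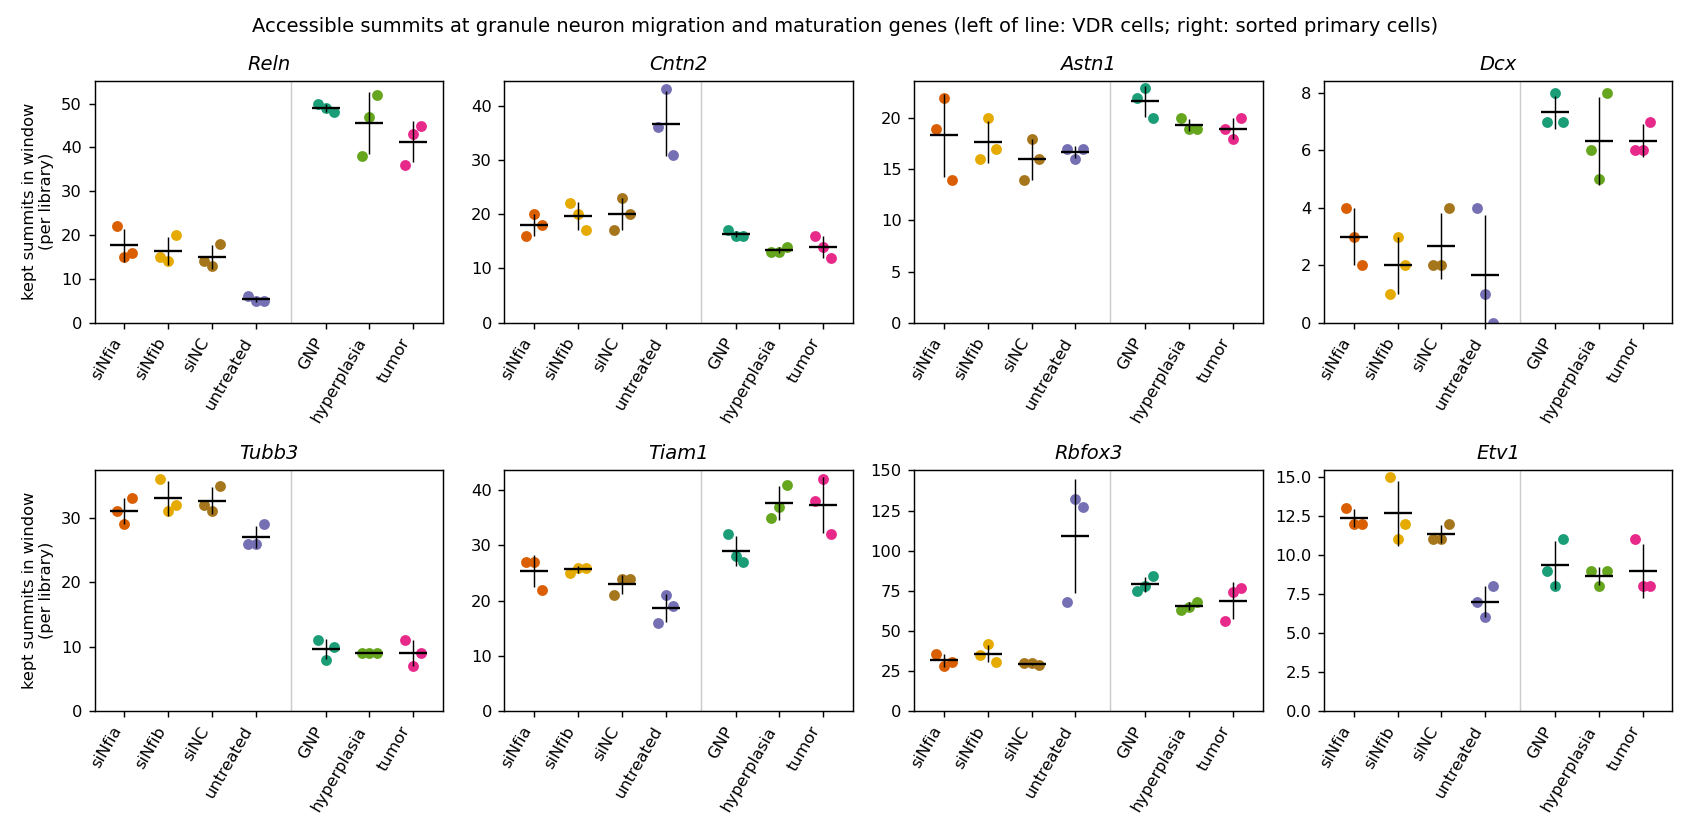
Kept summits in the window of each of the 8 genes (vertical axis, starting at 0), with 1 point per library, a horizontal bar for the mean and a vertical line for the SD of 3 libraries; VDR groups stand left of the grey line and sorted primary groups right of it. Reln lies at 5 to 22 summits in VDR and 36 to 52 in primary cells, and Tubb3 at 26 to 36 in VDR and 7 to 11 in primary cells.

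Between the stages of the disease in primary cells, none of the 8 members passed the test in any of the 3 comparisons. limma on log2(summits + 1), with Benjamini-Hochberg adjustment over the 14112 genes tested and a call at an adjusted p below 0.05, called 4.51% of genes in hyperplasia against GNP (2.18% higher and 2.33% lower), 0.198% in tumor against hyperplasia (0.12% and 0.0779%) and 6.63% in tumor against GNP (3.08% and 3.55%). At these shares fewer than 1 call among 8 genes is what the background alone would give, so a count of 0 sets the members apart from nothing. At an unadjusted p below 0.05, 2950, 2366 and 3282 genes passed in the 3 comparisons, with Cntn2, Tiam1 and Rbfox3 among those of hyperplasia against GNP, Tiam1 and Astn1 among those of tumor against GNP, and no member among those of tumor against hyperplasia. The median log2 change of the members was -0.13 in hyperplasia against GNP, against -0.02 over all genes tested, and -0.18 in tumor against GNP, against -0.05 over all genes tested. The 3 comparisons share their libraries and are not independent of each other.

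Tiam1 came closest to a call. Its window held 32, 28 and 27 summits in the 3 GNP libraries, 35, 37 and 41 in hyperplasia and 38, 42 and 32 in tumor. Hyperplasia was above GNP without overlap, while 1 tumor library had 32 summits, as many as the highest GNP library. The log2 change was 0.37 ± 0.11 in hyperplasia against GNP (SE, limma adjusted p = 0.0949, 95% interval 0.12 to 0.62) and 0.35 ± 0.11 in tumor against GNP (adjusted p = 0.0942), and neither passed. With each library's values centred on the median gene, the first of these had an adjusted p of 0.0481.

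Cntn2, the adhesion molecule, had 17, 16 and 16 summits in GNP, 13, 13 and 14 in hyperplasia and 16, 14 and 12 in tumor. GNP and hyperplasia did not overlap, and the log2 change in hyperplasia against GNP was -0.27 ± 0.10 (SE, limma adjusted p = 0.164). A window reaching 50 kb on each side gave -0.41 (adjusted p = 0.0408), and keeping summits with a score of at least 10 gave -0.70 (adjusted p = 0.0328). Rbfox3 had 75, 78 and 84 summits in GNP, 63, 65 and 68 in hyperplasia and 56, 74 and 77 in tumor. Its hyperplasia libraries also lay below those of GNP, with a log2 change of -0.27 ± 0.11 (adjusted p = 0.203), and without tumor replicate 1, whose spread enters the same fit, the adjusted p was 0.0498.

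Reln had 50, 49 and 48 summits in GNP, 38, 47 and 52 in hyperplasia and 36, 43 and 45 in tumor. The tumor libraries lay below all GNP libraries, with a log2 change of -0.25 (95% interval -0.51 to 0.02, limma adjusted p = 0.247). Astn1 had 22, 23 and 20 summits in GNP, 20, 19 and 19 in hyperplasia and 19, 18 and 20 in tumor, so the groups met at 20. Dcx had 7, 8 and 7 in GNP, 6, 5 and 8 in hyperplasia and 6, 6 and 7 in tumor. Tubb3 had 11, 8 and 10 in GNP, 9 in each hyperplasia library and 11, 7 and 9 in tumor. Etv1 had 9, 8 and 11 in GNP, 9, 8 and 9 in hyperplasia and 11, 8 and 8 in tumor. For Dcx, Tubb3 and Etv1 the stages overlapped throughout, and the 95% interval of the tumor against GNP change ran from -0.53 to 0.16 for Dcx, from -0.46 to 0.25 for Tubb3 and from -0.38 to 0.28 for Etv1. In tumor against hyperplasia all 8 changes lay between -0.14 and 0.06.

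Single 500 bp regions were compared between the stages as well. A region is called gained here when it held a kept summit in 3 of 3 libraries of the first group and 0 of 3 of the second, and lost in the opposite case, with no test. Of the 540 regions in the members' windows, 9 were gained and 16 lost in hyperplasia against GNP, 1.67% and 2.96% of them, where 1.82% and 1.71% of all 271215 regions were gained and lost. In tumor against GNP 7 were gained and 15 lost (1.3% and 2.78% of the members' regions, 1.76% and 1.62% of all regions), and in tumor against hyperplasia 3 and 4 (0.556% and 0.741%, against 0.709% and 0.781%). Most of these were shifts in rank and not appearances, because the missing summits were often present below rank 100000. When a region had to be without a summit also in the whole lists of the group that lacked it, 1 gain and 2 losses counted in hyperplasia against GNP, 1 and 1 in tumor against GNP, and 0 and 0 in tumor against hyperplasia.

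Tiam1 held 4 of the 9 gains in hyperplasia against GNP and none of the losses. The first, at chr16:89933970-89934469 in the gene body, was occupied in 3 of 3 hyperplasia and 3 of 3 tumor libraries and in none of the GNP or VDR libraries, with a median rank of 81583 in hyperplasia and 51896 in tumor. All 3 GNP lists held a weaker summit there. The next, at chr16:89836311-89836810, had a median rank of 80890 in hyperplasia and 44816 in tumor, and GNP again held only weaker summits. Reln gained 3 regions and lost 3, of which chr5:22107042-22107541, 237413 bases inside the gene from its start, had a median rank of 38433 in hyperplasia and no summit of any rank in GNP. Rbfox3 gained 2 and lost 8. At chr11:118667809-118668308, in its gene body, 3 of 3 hyperplasia and 3 of 3 tumor libraries held a kept summit, with median ranks of 38803 and 56997. Astn1 lost 3 regions, among them chr1:158710040-158710539 past the end of the gene, which had a median rank of 53248 in GNP and no summit at all in hyperplasia, though all 3 whole tumor lists held one. Etv1 lost 1, at chr12:38833028-38833527, which ranked only 92404 in GNP, and Dcx and Tubb3 gained and lost none in this comparison.

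VDR cells differed from tumor cells at most members. In siNC against tumor, 6 of 8 passed the limma test, Tubb3 and Cntn2 higher and Reln, Rbfox3, Tiam1 and Dcx lower. In untreated VDR against tumor 5 of 8 passed, Tubb3 and Cntn2 higher and Reln, Tiam1 and Dcx lower. The background was large, since 34.4% of 13923 genes were called in siNC against tumor (21.1% higher and 13.3% lower) and 44.1% of 13489 in untreated VDR against tumor (19.4% higher and 24.7% lower). The median gene itself moved by 0.11 in siNC against tumor and by -0.19 in untreated VDR against tumor on the log2 scale. Both comparisons use the same tumor libraries and so are not independent, and the line and the sorted tissue differ in culture as well as origin. Of the 540 regions of the members, 16 were gained and 37 lost with siNC (2.96% and 6.85%, against 2.01% and 4.64% of all regions), and 7 were gained and 47 lost in untreated VDR (1.3% and 8.70%, against 0.838% and 6.71%). Tubb3 alone held 13 of the 16 gains with siNC and all 7 in untreated VDR. A second set of values sets each window against the kept summits in the 2.5 Mb on each side of it, since whole stretches of the VDR genome carried more or fewer summits than in tumor.

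Reln, the secreted guidance protein, had the largest fall among the members in untreated VDR against tumor. Its window held 14, 13 and 18 summits with siNC, 6, 5 and 5 in untreated VDR and 36, 43 and 45 in tumor, and the VDR groups lay far below tumor without overlap. The log2 change was -1.41 ± 0.14 in siNC (SE, limma adjusted p = 0.00154) and -2.74 ± 0.15 in untreated VDR (adjusted p = 2.38e-05). The 2.5 Mb on each side held 143 ± 12 summits with siNC, 88.3 ± 22.3 in untreated VDR and 247 ± 4.51 in tumor. Relative to these surroundings Reln still fell, by 0.62 in siNC (adjusted p = 0.00964) and by 1.23 in untreated VDR (adjusted p = 0.00668) on the log2 scale. Of its 50 regions, 10 were lost with siNC and 16 in untreated VDR, and none was gained in either.

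**Figure D2:**
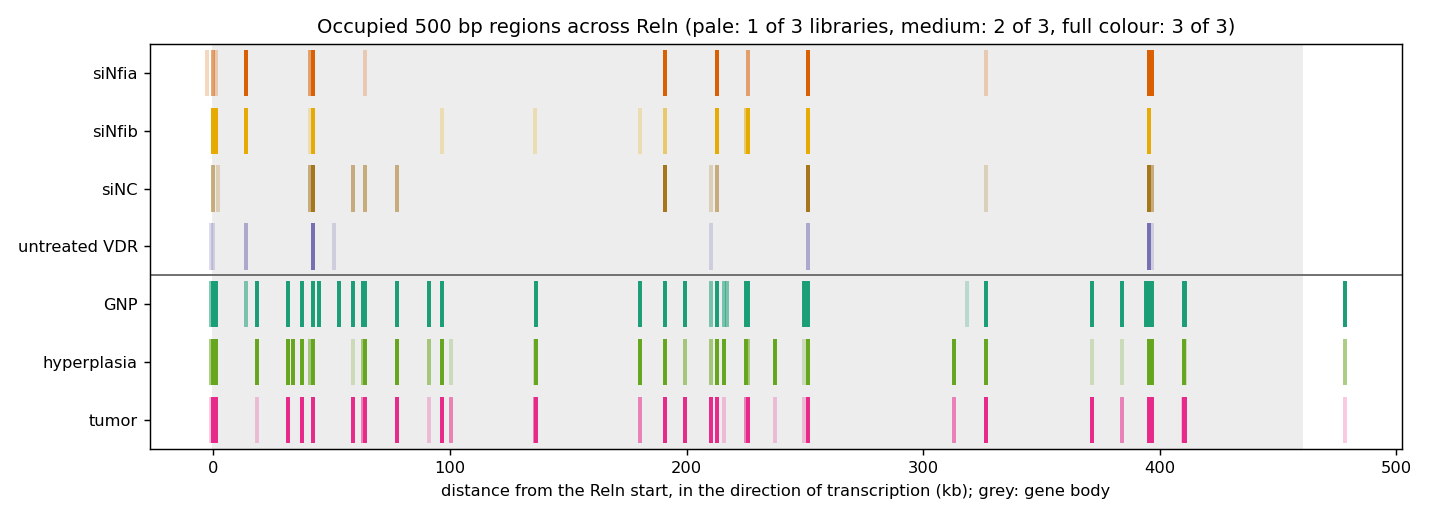
Regions of 500 bp that held a kept summit across Reln, by distance from its start in kb (horizontal axis), with 1 row per group and the colour darker where more of its 3 libraries held one; grey marks the gene body. The rows of VDR groups are sparse next to those of GNP, hyperplasia and tumor, and 2 regions, 42185 and 395390 bases from the start, are filled in all 21 libraries.

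Cntn2 had 17, 23 and 20 summits with siNC, 36, 43 and 31 in untreated VDR and 16, 14 and 12 in tumor. All VDR values here were above those of tumor. The log2 change was 0.48 ± 0.15 in siNC (SE, limma adjusted p = 0.0432) and 1.32 ± 0.17 in untreated VDR (adjusted p = 0.000512). The 2.5 Mb on each side held 587 ± 29.3 summits with siNC, 1089 ± 25.4 in untreated VDR and 423 ± 7.55 in tumor, and relative to them the changes were 0.013 (adjusted p = 0.962) in siNC and -0.037 (adjusted p = 0.911) in untreated VDR. The siNC call was also lost without tumor replicate 1, 2 or 3 or siNC replicate 2 or 3, with adjusted p-values of 0.0583 to 0.137, while the call in untreated VDR stood without any 1 library. Counting merged regions gave -0.0062 in siNC, and keeping summits with a score of at least 10 gave -0.37 in siNC and -1.53 in untreated VDR, where at most 17335 summits of a library reach that score, against at least 100829 in tumor.

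Astn1, the protein of migration along glia, had 14, 18 and 16 summits with siNC, 17, 16 and 17 in untreated VDR and 19, 18 and 20 in tumor. Neither change passed, with adjusted p-values of 0.141 and 0.279. Yet its surroundings held 285 ± 14.6 summits with siNC and 303 ± 20.74 in untreated VDR, against 190 ± 7.64 in tumor. Relative to them Astn1 was lower by 0.82 in siNC (limma adjusted p = 0.00111) and by 0.84 in untreated VDR (adjusted p = 0.0079).

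Dcx, the microtubule protein of migrating neurons, had 2, 2 and 4 summits with siNC, 4, 1 and 0 in untreated VDR and 6, 6 and 7 in tumor. Neither VDR group overlapped tumor. The log2 change was -1.04 ± 0.23 in siNC (SE, limma adjusted p = 0.0142) and -1.76 ± 0.52 in untreated VDR (adjusted p = 0.024). The 2.5 Mb on each side on chromosome X held 27.7 ± 6.81, 12.3 ± 6.03 and 54.7 ± 5.03 summits in siNC, untreated VDR and tumor, and relative to them the differences of Dcx were -0.06 in siNC (adjusted p = 0.848) and 0.41 in untreated VDR (adjusted p = 0.651), neither of which passed. Both calls were lost without tumor replicate 1, 2 or 3. The siNC call was lost also without siNC replicate 1 or 2 and the other also without untreated VDR replicate 2 or 3, so that adjusted p-values ran up to 0.0681 and 0.118.

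Tiam1, the Rac activator, had 21, 24 and 24 summits with siNC, 16, 21 and 19 in untreated VDR and 38, 42 and 32 in tumor. The VDR libraries were all below the tumor libraries. It fell by 0.67 in siNC (SE 0.12, limma adjusted p = 0.00684) and by 0.96 in untreated VDR (SE 0.15, adjusted p = 0.00162), while relative to its surroundings the differences of -0.27 (adjusted p = 0.168) and -0.03 (adjusted p = 0.939) did not pass. The 2 stage-gained regions of Tiam1 named above were without a kept summit in untreated VDR. Its strongest region, chr16:90143992-90144491, 1358 bases inside the gene from its 5′ end, was occupied in all 21 libraries with a median rank of 443 in siNC, 1778 in untreated VDR and 3576 in tumor.

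Rbfox3, the splicing factor, fell with siNC and did not pass in untreated VDR. It had 30, 30 and 29 summits with siNC, 68, 132 and 127 in untreated VDR and 56, 74 and 77 in tumor. The siNC libraries lay below tumor without overlap, a log2 change of -1.18 ± 0.13 (SE, limma adjusted p = 0.00164), while untreated VDR overlapped tumor and its change of 0.61 ± 0.25 did not pass (adjusted p = 0.0776). Without untreated VDR replicate 1, the library with 68 summits, the change in untreated VDR was 0.91 (adjusted p = 0.0114), and among summits with a score of at least 10 it was -3.70 (adjusted p = 4.26e-05). Relative to its surroundings, Rbfox3 fell by 0.88 in siNC (adjusted p = 0.00138), and its difference of -0.06 in untreated VDR did not pass (adjusted p = 0.835). Etv1 had 11, 11 and 12 summits with siNC, 7, 6 and 8 in untreated VDR and 11, 8 and 8 in tumor, and neither change passed (adjusted p = 0.129 and 0.221).

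**Figure D3:**
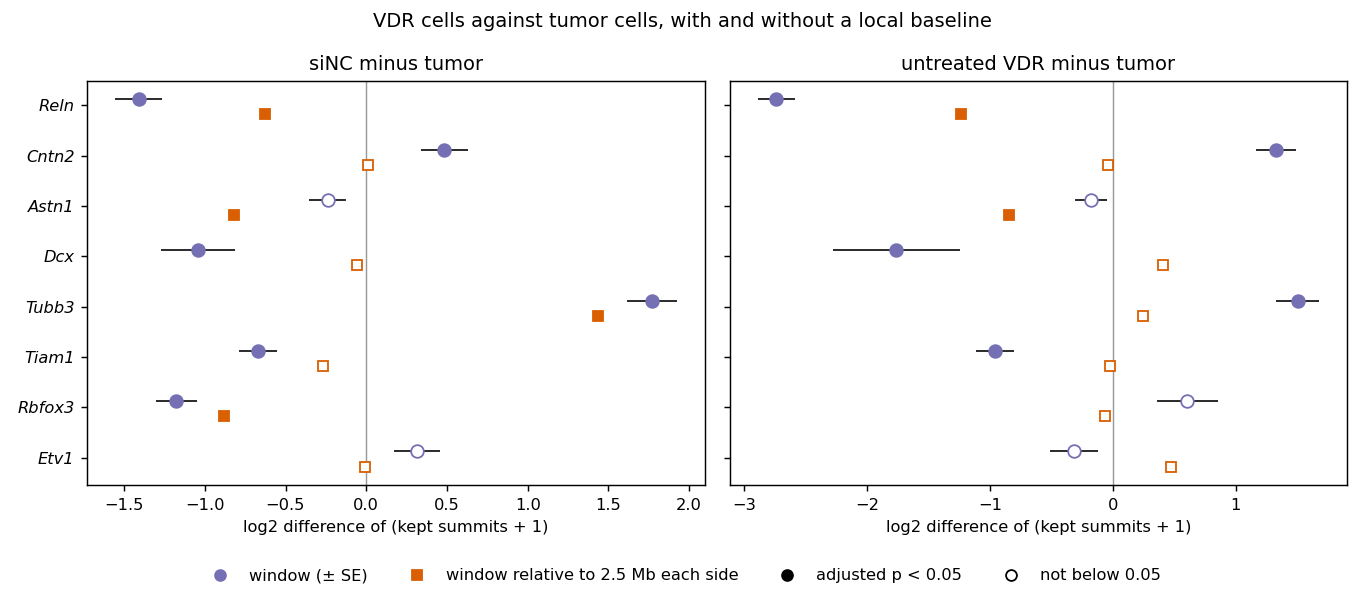
Log2 difference in kept summits (horizontal axis) of siNC minus tumor, left, and untreated VDR minus tumor, right, for each gene. Circles give the window with its SE, squares the window relative to the 2.5 Mb on each side, and filled symbols an adjusted p below 0.05; the squares of Cntn2, Dcx and Tiam1 lie nearer to 0 than their circles and are open, while those of Reln stay filled at -0.62 and -1.23.

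Tubb3, the neuronal tubulin, was higher in both VDR comparisons. Its window held 32, 31 and 35 summits with siNC, 26, 26 and 29 in untreated VDR and 11, 7 and 9 in tumor, with no overlap. The log2 change was 1.77 ± 0.16 in siNC (SE, limma adjusted p = 0.00102) and 1.503 ± 0.176 in untreated VDR (adjusted p = 0.000381). Relative to its surroundings it was 1.43 in siNC (adjusted p = 0.00041) and 0.25 in untreated VDR (adjusted p = 0.49), where the 2.5 Mb on each side held 1353 ± 187 summits, against 563 ± 21.5 in tumor. Keeping summits with a score of at least 10 turned the change in untreated VDR to -1.41. The rise lay outside the gene, since the gene body alone changed by -0.44 in siNC (adjusted p = 0.462) and by 0.27 in untreated VDR (adjusted p = 0.363).

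In siNC the added summits lay past the 3′ end of Tubb3. The downstream flank held 23 ± 2.65 summits with siNC and 12.7 ± 1.53 in untreated VDR, against 1 ± 0 in tumor (SD, n = 3). The upstream flank held 6.67 ± 1.53 with siNC and 9.33 ± 1.53 in untreated VDR, against 4 ± 1 in tumor, so in untreated VDR part of the difference lay upstream. Beyond 2 kb from the gene end and within the 20 kb flank there were 18, 22 and 24 kept summits with siNfia, 22, 19 and 21 with siNfib, 24, 20 and 21 with siNC and 10, 12 and 13 in untreated VDR. All 9 GNP, hyperplasia and tumor libraries had 0 there, also in their whole lists. In siNC the summits lay in chr8:123426364-123434118, which is 4349 to 12103 bases past the end, between Tubb3 and the next gene, Def8, in a stretch where RefSeq places no gene. They belonged to 1 to 4 peaks in a siRNA-treated library, with many summits each, and to 8 to 10 peaks in an untreated VDR library, with little more than 1 summit each. The best summit of a library ranked between 1895 and 24411. Of the 39 regions of the Tubb3 window, 10 were occupied in all 9 siRNA-treated libraries and in none of the 9 primary libraries (25.6%, where 0.487% of all regions showed this pattern), and no other member had such a region. The summits next to the start of Def8, by contrast, were present in every library, at 2 to 4 kept summits. A difference between the line and the tissue in the DNA of this stretch and one in its chromatin cannot be told apart from summit lists.

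**Figure D4:**
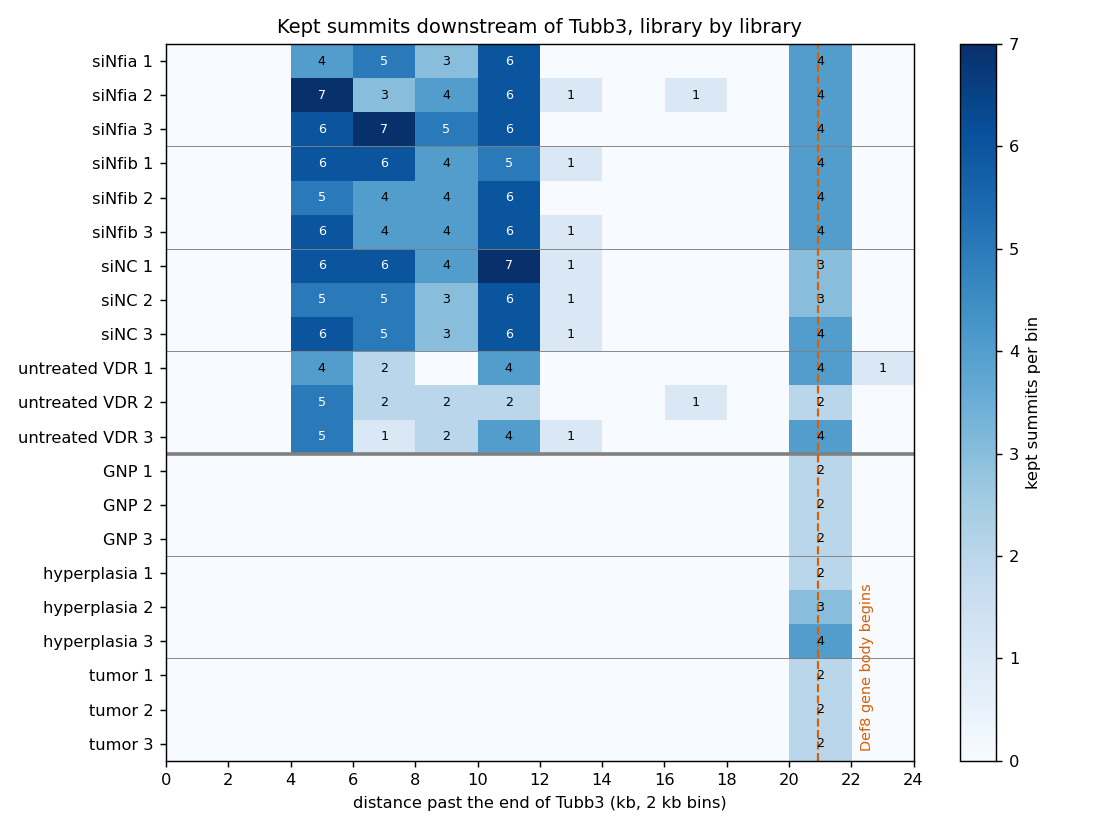
Kept summits in 2 kb bins (horizontal axis, kb past the end of Tubb3) in each of the 21 libraries, with a dashed line where Def8 begins. The number is printed in every filled bin. Summits within 2 kb of the gene end are not drawn, so the blank first bin does not mean that it held none. Bins from 4 to 12 kb are filled in the 12 VDR libraries, apart from 1 empty bin in untreated VDR replicate 1, and empty in the 9 primary libraries, while the bin at 20 kb is filled in all.

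Treatment directed at Nfia or Nfib left the summit counts of the members without a call against siNC. None of the 7 members tested passed in either comparison (limma over 13542 genes), and Dcx was not tested, having a mean under 3 summits. No member reached an unadjusted p below 0.05 in either comparison. siNfia against siNC gave 0 calls in all (0.0% of genes, 1509 at an unadjusted p below 0.05), and siNfib against siNC called 0.938% of genes. Both comparisons share the siNC libraries. Rbfox3 had 36, 28 and 31 summits with siNfia, 35, 42 and 31 with siNfib and 30, 30 and 29 with siNC, so that siNfib lay just above siNC, with a log2 change of 0.26 ± 0.12 (SE, limma adjusted p = 0.361). Tiam1 had 27, 27 and 22 with siNfia, 25, 26 and 26 with siNfib and 21, 24 and 24 with siNC. Its siNfib libraries were also all above siNC, with a change of 0.15 ± 0.11 (adjusted p = 0.592).

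The other members overlapped between siNfib or siNfia and siNC. Reln had 22, 15 and 16 summits with siNfia and 15, 14 and 20 with siNfib, against 14, 13 and 18 with siNC. Cntn2 had 16, 20 and 18 with siNfia and 22, 20 and 17 with siNfib, against 17, 23 and 20 with siNC. Etv1 had 13, 12 and 12 with siNfia and 15, 11 and 12 with siNfib, against 11, 11 and 12 with siNC. Astn1 had 19, 22 and 14 with siNfia and 16, 20 and 17 with siNfib, against 14, 18 and 16 with siNC, and Tubb3 had 31, 29 and 33 with siNfia and 36, 31 and 32 with siNfib, against 32, 31 and 35 with siNC. Dcx had 4, 3 and 2 with siNfia and 1, 3 and 2 with siNfib, against 2, 2 and 4 with siNC. The 95% intervals of the 7 tested changes reached at most from -0.44 to 0.58 in siNfia and from -0.32 to 0.52 in siNfib. These outermost limits belong to different members, and others had narrower intervals, such as Tubb3 with -0.29 to 0.15 in siNfia. For each member, changes inside its own interval were not excluded. In data simulated on siNfia against siNC over 13542 genes, 14 of 100 genes given a 2-fold change and 63 of 100 given a 4-fold change were called. The spread of the simulated counts was fixed in advance and not estimated from these libraries, so these shares do not say what could be called at the members. The SE of the 7 tested log2 changes in siNfia was 0.103 to 0.172.

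Few single regions of the members differed under siNfib. Of 540 regions, 5 were gained and 1 lost against siNC (0.926% and 0.185%, where 1.34% and 0.869% of all regions were gained and lost), and with siNfia 1 was gained and none lost (0.185% and 0%, against 0.405% and 0.357%). Reln held 3 of the 5 gains. The one nearest to its start, chr5:22343508-22344007 at 947 bases inside the gene, was occupied in 3 of 3 siNfib and 0 of 3 siNC libraries, at a median rank of 95360, and 2 of 3 whole siNC lists held a weaker summit there. Tumor, hyperplasia and GNP held it in 3 of 3 libraries each. Cntn2 gained chr1:132562444-132562943, at -19443 bases from its start, which is upstream, with a median rank of 46438 in siNfib and no siNC summit of any rank. It lost chr1:132522959-132523458 in the gene body, which had a median rank of 69659 with siNC and a weaker summit in all 3 whole siNfib lists. The score at rank 100000 was 8.25 to 17.4 in siNfib and 4.95 to 9.61 in siNC, with overlap, and its part in the gains was not tested.

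The rank of the best summit within 1 kb of a start site put the members in another order than the counts did. Start sites were the RefSeq promoter starts and the 5′ end of the gene body, and a rank of 1 is the strongest summit of a library. Tubb3 was open at its start in all 21 libraries, at ranks of 4989 to 8281 with siNfia, 1074 to 2994 with siNfib, 3130 to 7253 with siNC and 848 to 1941 in untreated VDR, and at 3649 to 4360 in GNP, 2487 to 4560 in hyperplasia and 2121 to 3597 in tumor. Untreated VDR thus ranked it above tumor without overlap. The Cntn2 start ranked 2185 to 4541 with siNC and 2620 to 7073 in untreated VDR, against 24579 to 36946 in tumor. It ranked 13848 to 16725 in GNP and 25084 to 28285 in hyperplasia. Both VDR ranges lay above that of GNP, and GNP above hyperplasia and tumor, without overlap, while siNC overlapped untreated VDR and hyperplasia overlapped tumor.

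The start of Etv1 ranked higher in the siRNA-treated groups than in untreated VDR or tumor. It lay at 5890 to 7926 with siNfia, 2821 to 4862 with siNfib and 6652 to 9441 with siNC, so the siNfib libraries lay above all siNC libraries while siNfia overlapped siNC. In untreated VDR it ranked 18851 to 27802 and in tumor 12918 to 22817. The median rank of its most widely occupied region, chr12:38778499-38778998 just upstream, was 1426 with siNfia and 1850 with siNfib, against 4574 with siNC. Ranks were described and not tested, and the score at rank 100000 was higher in siNfib than in siNfia and in 2 of 3 siNC libraries.

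At the starts of Dcx, Reln and Astn1 some VDR libraries had no kept summit. The Dcx start had a kept summit in 1 of 3 siNfia, 1 of 3 siNfib, 2 of 3 siNC and 0 of 3 untreated VDR libraries, against 3 of 3 in GNP, hyperplasia and tumor, where it ranked 20184 to 51886. The Reln start had one in 2 of 3 siNfia, 3 of 3 siNfib, 2 of 3 siNC and 2 of 3 untreated VDR libraries, and in all primary libraries at ranks of 22382 to 40996. The 2 untreated VDR libraries with a summit there had ranks of 16534 and 49964, so they lay on both sides of the primary range, while the siNC ranks were 78035 and 79632. The Astn1 start had one in 2 of 3 siNfia, 3 of 3 siNfib, 2 of 3 siNC and 1 of 3 untreated VDR libraries and in all primary libraries. Rbfox3 ranked 24120 to 52273 with siNC and 32415 to 41171 in untreated VDR, against 14765 to 19053 in tumor, with no overlap. Tiam1 had only weak summits within 1 kb of its start sites in all groups, at ranks of 57638 to 96674 where a summit was kept. Its strongest region lay just outside that distance, 1358 bases inside the gene from its 5′ end. That region was occupied in all 21 libraries, at median ranks from 300 with siNfia to 3576 in tumor.

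**Figure D5:**
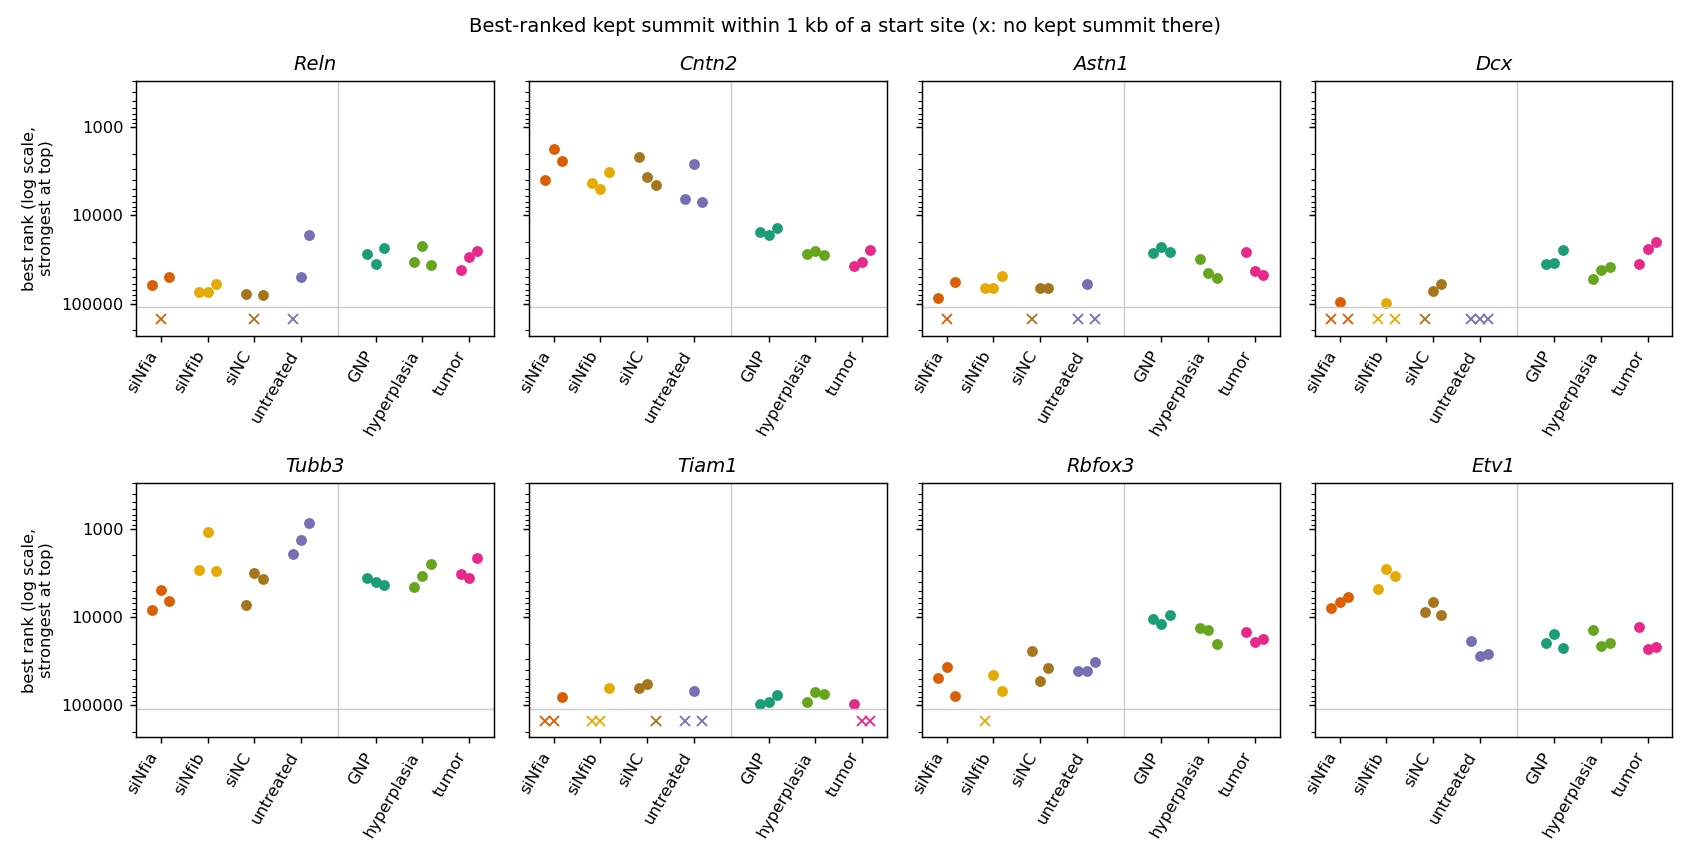
Rank of the best kept summit within 1 kb of a start site of each gene (vertical axis, log scale, strongest at the top), with 1 point per library and a cross where a library had no kept summit there. The Cntn2 points of VDR cells, at 1751 to 7073, stand above those of primary cells, at 13848 to 36946, and Dcx has no kept summit at its start in untreated VDR.

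Some regions of the members were open everywhere. Of the 540, 20 (3.70%) were occupied in all 21 libraries, against 5.47% of all regions, and 72 (13.3%) in all 9 primary libraries, against 14.8%. Rbfox3 held 6 of the 20, the best of them at the neighbouring gene Engase, and the Astn1 region with the best ranks likewise touched Brinp2. Reln kept 2 in all libraries, chr5:21949065-21949564 with median ranks of 16090 in siNC, 36818 in untreated VDR and 1958 in tumor, and chr5:22302270-22302769. Of the 540 regions, 11 (2.04%) were in all primary and no siRNA-treated library, against 1.58% of all regions, and 4 of these lay in Reln.

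Other genes of the same processes were counted from lists. Some of those that passed are named, each among the 3 smallest adjusted p-values of a list and comparison. The counts are to be read against the 34.4% of all genes called in siNC against tumor and the 44.1% called in untreated VDR against tumor. These shares apply to the windows themselves. For counts relative to the surroundings no share over all genes is given, so they have no background beside them. Among 8 reelin receptors and transducers, 1 passed as higher and none as lower in siNC against tumor, namely the adaptor Crkl with 7.33 ± 0.577 summits in siNC and 3.67 ± 0.577 in tumor (SD, n = 3, limma adjusted p = 0.00638). In untreated VDR against tumor 1 rose, the integrin Itga3, and 3 fell. Among those that fell was Dab1, an adaptor of reelin signalling, with 25.7 ± 2.31 in untreated VDR and 38.3 ± 2.08 in tumor (adjusted p = 0.00644). Relative to the surroundings 2 rose and none fell in untreated VDR, and Dab1 had a difference of 0.21 (adjusted p = 0.399). Itga3 was also the 1 gene of this list that passed in the stages, with 9 ± 1 in hyperplasia (adjusted p = 0.00828) and 10.3 ± 0.577 in tumor (adjusted p = 0.0208), against 15 ± 0 in GNP. The tumor call stood in 4 of 9 fits with 1 library left out.

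Among 14 genes of microtubules and nuclear movement, 1 rose and 5 fell in siNC against tumor, and none rose and 7 fell in untreated VDR against tumor. Relative to the surroundings 1 rose and 5 fell in siNC, and 1 rose and 4 fell in untreated VDR. Stmn2, a tubulin-binding protein of growing axons, had no kept summit with siNC and 0.667 ± 0.577 in untreated VDR, against 11 ± 1.73 in tumor (limma adjusted p = 0.000146 and 0.000313). Cdk5r1, the activator of Cdk5, had 7 ± 1 with siNC and 6 ± 1 in untreated VDR, against 15.3 ± 0.577 in tumor (adjusted p = 0.00216 and 0.000825). It was also the 1 gene of this list to pass in tumor against GNP, where GNP had 10 ± 1 (adjusted p = 0.0302), a call that stood in 3 of 9 fits with 1 library left out.

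Among 15 genes of adhesion and guidance, 4 rose and 3 fell in siNC against tumor, and of 14 tested 3 rose and 7 fell in untreated VDR against tumor. Relative to the surroundings 2 rose and 4 fell in siNC, and none rose and 4 fell in untreated VDR. The netrin receptor Unc5c had no kept summit in siNC or untreated VDR, against 10.7 ± 2.52 in tumor (limma adjusted p = 0.000245 and 8.63e-05). The neurotrophin receptor Ntrk2 had none with siNC and 1.67 ± 1.15 in untreated VDR, against 22.3 ± 3.21 in tumor (adjusted p = 7.38e-05 and 0.000147). Astn2, the relative of Astn1, went the other way in siNC with 61 ± 5.29, against 33.3 ± 0.577 in tumor (adjusted p = 0.00144). Its change relative to its surroundings did not pass (adjusted p = 0.165). Nfasc rose in untreated VDR, to 82 ± 4.58 against 26.3 ± 2.08 in tumor (adjusted p = 5.64e-05, the smallest of the list there). Relative to its surroundings Nfasc did not pass (adjusted p = 0.297).

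Among 8 genes of polarity and Rac signalling, the kinase Pak1, which Rac1 activates, was the 1 that passed in the stages, with 11 ± 1 summits in hyperplasia and 5.33 ± 0.577 in GNP (limma adjusted p = 0.00597). In siNC against tumor 1 rose and 1 fell, and in untreated VDR against tumor 1 rose and 2 fell. Relative to the surroundings none of the 8 passed in either comparison. Of 8 neuronal splicing and ETS genes, Rbfox2 passed in hyperplasia against GNP with 22.7 ± 4.16 in hyperplasia and 13.3 ± 1.53 in GNP (adjusted p = 0.0353), a call that stood in 2 of 9 fits with 1 library left out. Elavl3, a neuronal RNA-binding protein, was the single gene of these lists that passed in siNfib against siNC, with 21 ± 0 with siNfib and 12.3 ± 2.08 with siNC (adjusted p = 0.0295). That call too stood in 2 of 9 such fits, and relative to its surroundings the adjusted p was 0.063. In the splicing and ETS list none rose and 1 fell in siNC against tumor, and none rose and 4 fell in untreated VDR against tumor. Relative to the surroundings none rose and 1 fell in siNC, and 1 rose and 3 fell in untreated VDR. Rbfox1 had the smallest adjusted p in untreated VDR, with 14.7 ± 2.31 against 44.3 ± 2.89 in tumor (adjusted p = 0.000164).

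Among 15 granule neuron maturation genes, 14 of them tested, 1 rose and 6 fell in siNC against tumor and 3 rose and 8 fell in untreated VDR. Neurod1, a factor of granule neuron differentiation, had 3 ± 1 with siNC, 1.33 ± 0.577 in untreated VDR, and 10.3 ± 0.577 in tumor (limma adjusted p = 0.00267 and 0.000238). Relative to its surroundings the difference of Neurod1 in untreated VDR was -0.24 (adjusted p = 0.436). On that scale none of the list rose and 3 fell in siNC, and 1 rose and 5 fell in untreated VDR. Neurod1 fell also in hyperplasia against GNP, to 8.67 ± 0.577 against 13.7 ± 0.577 (adjusted p = 0.00922). Pax6, a factor of granule progenitors and neurons, had 11.3 ± 2.08 with siNC, 3.67 ± 1.15 in untreated VDR, and 26 ± 4.58 in tumor (adjusted p = 0.00435 and 0.000117). Meis1 had the smallest adjusted p of the list in untreated VDR, with 8.67 ± 1.53 against 43 ± 4.58 in tumor (adjusted p = 7.1e-05). Relative to its surroundings Meis1 still fell there, by 1.51 (adjusted p = 0.00148). The median log2 change of this list was -0.18 in siNC, where that of all genes was 0.11, and -0.85 in untreated VDR, where that of all genes was -0.19. The members themselves had medians of -0.45 and -0.25.

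Markers of other cells were counted beside these results. In hyperplasia and tumor against GNP, Foxp2, a marker of Purkinje cells, rose to 26.7 ± 2.31 and 28.3 ± 4.62 summits, against 11.3 ± 1.53 in GNP (limma adjusted p = 0.00496 and 0.00284). Gad1, the other gene of that list tested and a marker of inhibitory neurons, fell in tumor, to 3 ± 0 against 7 ± 0 in GNP (adjusted p = 0.00727). The 7 Purkinje and interneuron markers summed to 27 to 32 in GNP, 37 to 46 in hyperplasia and 32 to 42 in tumor. Foxp2 is part of these sums, and its mean rose by more than the sum did in hyperplasia and in tumor. The other markers of this list therefore did not rise in sum. Oligodendrocyte markers, 6 genes, summed to 35 to 42 with siNC, 31 to 41 in untreated VDR and 64 to 66 in tumor, and GNP had 49 to 58. Of the 5 tested, 4 fell and 0 rose in siNC against tumor, and 4 fell and 1 rose in untreated VDR against tumor. The riser was Sox10, with 16 ± 1 in untreated VDR against 3.33 ± 0.577 in tumor (limma adjusted p = 0.000143). Astrocyte markers, 6 genes, summed to 44 to 47 with siNC, 46 to 59 in untreated VDR and 43 to 52 in tumor, with Aqp4 at 0 in both VDR groups. Microglia markers, 6 genes, summed to 18 to 22, 23 to 35 and 14 to 18 in the same 3 groups, and vascular markers, 6 genes, to 10 to 13, 21 to 26 and 14 to 21. The 12 granule progenitor genes had summits in every group, 302 to 346 with siNC, 495 to 548 in untreated VDR and 284 to 307 in tumor. In siNC against tumor 4 of them rose and 2 fell, with a median log2 change of -0.13. In untreated VDR against tumor, by contrast, 1 of them rose and 6 fell, with a median log2 change of -0.75. The 1 that rose was Gli2, with 397 ± 45.2 in untreated VDR, against 48.3 ± 6.11 in tumor, and relative to its surroundings it fell by 1.04 (adjusted p = 0.00639). Summits in a gene window are no measure of cell number, and the part of other cells in the members' results was not tested.

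The genes whose mean counts over the 7 groups were most like those of a member were, by Pearson's r over 7 group means, Scn3b (r = 0.999) and Med12 for Reln, Crtc1 (r = 0.996) and Csnk1e for Cntn2, Ccdc38 (r = 0.981) and Mst1r for Astn1, and Xylt1 (r = 0.994) and Trabd2b for Dcx. For Tubb3 they were Stk38l (r = 0.998) and Zfp385a, for Tiam1 Mtus1 (r = 0.997) and Peli1, for Rbfox3 En1 (r = 0.992) and Col13a1, and for Etv1 Tnks1bp1 (r = 0.997) and Tpgs2. These were chosen among 12761 to 13701 genes on other chromosomes, on log2(summits + 1). With 7 points, 4 of them from 1 cell line, r values near 1 describe these libraries only.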

How the data were processed

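Chromatin accessibility had been measured by Omni-ATAC in 21 mouse libraries, 3 in each of 7 groups. Per the submitters' processing notes, Bowtie2, Picard, MACS2 and mm10 were used, with no versions given. The deposited files are lists of peak summits, each with a score that the authors give as a −log10 value, and whether of p or q is not stated. Scores were used to rank summits within a list and were not compared between lists, apart from the score at rank 100000. The lists hold no read depth, so values carry no counting interval. The 100000 highest summits of each list were kept and counted in every protein-coding gene body (RefSeq, GRCm38.p6) plus 20 kb on each side.

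limma 3.58.1 (R 4.3.3), with a trended variance, was fitted to log2(summits + 1) for genes with a mean of at least 3 summits, with Benjamini-Hochberg adjustment over all genes and a call at an adjusted p below 0.05. One fit held the 9 primary libraries, one the 9 siRNA-treated libraries, and one each VDR group with tumor. Fold changes are on the log2(summits + 1) scale, which understates those of low genes. Summits of all libraries were merged into 500 bp regions (Python 3.11.15, pandas 2.3.3, numpy 2.4.6). Regions were compared by occupancy with no test, since an exact permutation test of 3 against 3 libraries cannot go below p = 0.1. The fits were tested on simulated data.

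The members and the gene lists were chosen with earlier results of these data known. Listed genes are named from those that passed, at most the 3 with the smallest adjusted p per list and comparison. Not every such gene is named. Regions are named by the best median rank among those gained or lost in a stage or siRNA comparison, at most 2 per member, and 1 region in the most libraries, and others named were chosen after their values were seen, as was the stretch past Tubb3. Other list lengths, windows, counting units, pseudocounts, filters, scalings, sets of libraries and a replicate block were tried.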

Additional observations from a re-analysis of the deposited data

How the results depend on the processing

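Of the log2 changes of single members recomputed under the alternatives, 1099 kept their side of the threshold, 31 lost the call and 21 gained it. Another 8 reversed with a call before or after, and the cause was not tested for any of them. Changes without a call before and after are among the 1099 even where their sign turned. Etv1 in untreated VDR against tumor, for example, went from -0.32 to 0.47 relative to its surroundings. In hyperplasia against GNP 1 member was called, against 0, with a score of at least 10, with 50 kb on each side and with median-centred libraries, and 0 to 1 with 1 library left out, the 1 being Rbfox3 without tumor replicate 1. In untreated VDR against tumor 8 members were called with a score of at least 10 and 2 relative to the surroundings, against 5. With that score 11438 genes were called in all, so the count of 8 does not set the members apart. Untreated VDR libraries had 11433 to 17335 summits of that score, against 100829 to 153207 in tumor. With 1 library left out, 4 to 6 members were called in untreated VDR against tumor, and 4 to 5, against 6, in siNC against tumor. The count stayed at 0 without any 1 library in tumor against hyperplasia, tumor against GNP and both siRNA comparisons.

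The changes counted as reversed in untreated VDR against tumor were, with a score of at least 10, -1.53 for Cntn2, -1.41 for Tubb3 and -3.70 for Rbfox3, and, relative to the surroundings, -0.037 for Cntn2 and 0.41 for Dcx. In siNC against tumor they were -0.37 for Cntn2 with a score of at least 10, -0.0062 for Cntn2 with merged regions and -0.44 for Tubb3 in the gene body alone.

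Gained and lost regions also moved. With 50000 summits kept, 8 were lost in hyperplasia against GNP, 7 in tumor against GNP and 0 in siNfib against siNC, and 3 were gained and 20 lost in untreated VDR against tumor. With 250 bp regions 5 were gained in tumor against hyperplasia, 3 in untreated VDR against tumor and 3 in siNfia against siNC, where 2 were lost. With 1000 bp regions 10 were gained in siNC against tumor, 1 was lost in siNfia against siNC and 2 in siNfib against siNC. With no summit allowed in the whole lists of the empty group, 1 was gained and 2 lost in hyperplasia against GNP, 0 and 0 in tumor against hyperplasia, 1 and 1 in tumor against GNP, 18 lost in siNC against tumor, 0 gained in siNfia against siNC, and 1 gained and 0 lost in siNfib against siNC.

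The number of genes called in all also changed. It ran from 130 to 989 (636 as reported) in hyperplasia against GNP, 5 to 350 (28) in tumor against hyperplasia, 66 to 1601 (935) in tumor against GNP, 2678 to 11438 (5947) in untreated VDR against tumor, 1978 to 6605 (4789) in siNC against tumor, 0 to 31 (0) in siNfia against siNC and 0 to 210 (127) in siNfib against siNC. With 1 library left out it ran from 139 to 550, 4 to 37, 220 to 926, 3667 to 6047, 2869 to 4024, 0 to 0 and 3 to 107 in the same order.

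Deviations of libraries of the same replicate number were at most weakly correlated (-0.04 to 0.07). Among the siRNA-treated libraries these correlations were -0.0009 to 0.066, against -0.070 to 0.024 between libraries of different number. Among the primary libraries they were -0.038 to 0.048, against -0.049 to 0.041. A weak pairing by number in the siRNA-treated groups is therefore not excluded. With the replicate number as a block 6 members were called in untreated VDR against tumor, with Rbfox3 added (adjusted p = 0.014), and 5 in siNC against tumor, without Cntn2 (adjusted p = 0.0904); no other member's call changed, and the genes called in all were 281, 10, 512, 5395, 3767, 0 and 109 in the order above. An added alternative for the 3 stage comparisons, with the untreated VDR libraries beside the 9 primary ones in 1 fit, was chosen after seeing the data and called 0 members in each.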
